A study of Mus musculus with 6 samples.

Results

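Skeletal muscle genes were measured in cochleae, the coiled part of the inner ear that senses sound, taken from mice at postnatal day 7. The genes described are the 6 skeletal myosin heavy chain genes Myh3, Myh8, Myh7, Myh2, Myh1 and Myh4, the striated muscle actin genes Acta1 and Actc1, the muscle creatine kinase gene Ckm and the myoglobin gene Mb. They were picked by symbol, and all 10 were found among the 30462 genes of the table. Of the 6 libraries, 3 were labelled NEU4 KO (here knockout 2, 4 and 5) and 3 were labelled WT (here wild type 3, 4 and 5). Neu4 encodes a sialidase. The labels give the tissue, the genotype and the age. They give no strain, no allele and no number of animals in a sample, and whether each sample is its own animal is left unsaid, so each p-value measures the spread between these samples.

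A muscle fibre contracts when myosin heavy chains of the thick filament pull on actin of the thin filament. Fibres change their myosin genes as they mature: embryonic (Myh3) and perinatal (Myh8) chains are replaced by the adult chains of slow fibres (Myh7) and of fast IIa (Myh2), IIx (Myh1) and IIb (Myh4) fibres. In the same period cardiac actin, the fetal form in skeletal muscle, gives way to skeletal actin. The cochlea itself has no skeletal muscle, while the adjoining middle ear holds the stapedius and tensor tympani muscles. Which muscle was included at dissection, and how much, is not given in the labels. In tissue RNA, fewer muscle fibres and less RNA per fibre cannot be told apart.

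Library totals were 15170973 to 17192293 fragments, so that the muscle genes rested on between 9 (Actc1 in knockout 4) and 10116 (Myh8 in wild type 5) fragments. Cochlear markers were present in each library: Tectb, a tectorial membrane gene, had 93.9 to 116 FPKM (fragments scaled to exon length and library size), and Otof, a gene of inner hair cell synapses, had 6.88 to 8.62. The targeted gene did not check the labels, since Neu4 gave 4, 8 and 6 fragments in both groups. Knockout 2 and wild types 3 and 4 had Ddx3y of the Y chromosome above 0, whereas knockouts 4 and 5 and wild type 5 had Xist RNA and Ddx3y at 0.

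Muscle RNA varied widely between the libraries of each group. Summed over the 10 genes, knockouts 2, 4 and 5 had 165, 20.3 and 190 FPKM, while wild types 3, 4 and 5 had 207, 107 and 445. Knockout 4 was the lowest library for 9 of the 10 genes, Myh2 being the exception, and wild type 5 the highest for 8, all but Myh2 and Myh7. Over all 14072 genes tested, knockout 4 was lowest for 14.9% and wild type 5 highest for 20.1%. The ratio of the highest to the lowest library ran from 5.18 (Mb) to 64.7 (Actc1), while its median over the tested genes was 1.26.

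**Figure D1:**
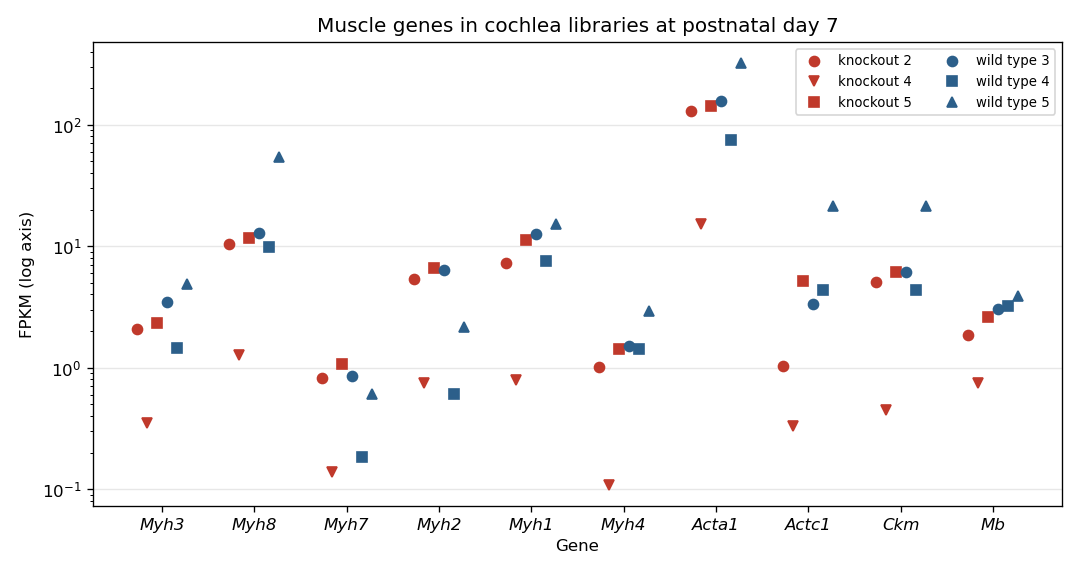
FPKM of the 10 muscle genes (log axis) in the 3 knockout (red) and 3 wild type (blue) libraries, 1 point per library. Knockout 4 lies lowest for 9 genes and wild type 5 highest for 8, and Acta1 is the most abundant gene in all 6 libraries.

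Per length of exon, the skeletal actin gene was the most abundant in all 6 libraries and Myh8 the next in all 6. Mean FPKM over the 6 libraries was 140 for Acta1, 16.7 for Myh8, 9.13 for Myh1, 7.25 for Ckm, 5.93 for Actc1, 3.63 for Myh2, 2.56 for Mb, 2.43 for Myh3, 1.40 for Myh4 and 0.611 for Myh7. The library ranges of neighbours in this order overlapped, so the order was read within libraries. There, Myh7 came last in 5 libraries and Myh4 in knockout 4, and Myh2 had rank 4 in 4 libraries but rank 9 in wild types 4 and 5.

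The perinatal chain Myh8 (ENSMUSG00000055775, chromosome 11, 67277124 to 67308634, plus strand, GRCm38) had 10.4, 1.27 and 11.7 FPKM in knockouts 2, 4 and 5. In wild types 3, 4 and 5 it had 12.9, 9.89 and 53.8 FPKM. The groups overlapped, and apart from knockout 4 and wild type 5 the other 4 libraries lay between 9.89 and 12.9. Myh3, the embryonic chain, had 2.09, 0.351 and 2.31 FPKM in the knockouts and 3.47, 1.44 and 4.90 in the wild types. The 2 developmental chains did not keep a fixed ratio: Myh3 was 20.1%, 27.5% and 19.8% of Myh8 in the knockouts and 26.8%, 14.6% and 9.11% in the wild types.

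Myh7, the slow chain, was the least abundant, with 0.815, 0.137 and 1.06 FPKM in the knockouts and 0.858, 0.182 and 0.610 in the wild types. These values rest on 117, 20 and 139 fragments and on 122, 27 and 84 fragments. Its high libraries were knockouts 2 and 5 and wild type 3, and its low ones were knockout 4 and wild type 4. The IIa chain gene Myh2 (ENSMUSG00000033196, chromosome 11, 67171027 to 67197517) had the same high libraries, with 5.37, 0.753 and 6.59 FPKM in the knockouts and 6.31, 0.611 and 2.15 in the wild types. In wild type 5, where most muscle genes peaked, Myh2 was below knockouts 2 and 5 and wild type 3.

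The IIx chain gene Myh1 had 7.29, 0.790 and 11.3 FPKM in the knockouts and 12.5, 7.60 and 15.3 in the wild types. Myh4, the IIb chain gene, had 1.02, 0.108 and 1.42 FPKM against 1.5002, 1.42 and 2.94. Both followed the common pattern of a low knockout 4 and a high wild type 5. In the rounded values knockout 5 and wild type 4 coincide for Myh4, the former (1.4244) being just above the latter (1.4213).

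Myh3, Myh2, Myh1, Myh4 and Myh8 stand in this order on the plus strand of chromosome 11, between 67078300 (the first base of Myh3) and 67308634 (the last base of Myh8). Since Myh2, with the lowest values in wild types 4 and 5 relative to its neighbours, lies between genes that followed the common pattern, the 250 bases before the RefSeq starts of Myh2, Myh1, Myh4 and Myh8 are shown (RefSeq, GRCm38.p6). They are read 5′ to 3′ on the plus strand at chr11:67170777-67171026, chr11:67199852-67200101, chr11:67237562-67237811 and chr11:67276874-67277123. Capitals mark the longest run that all 4 windows share.
Myh2: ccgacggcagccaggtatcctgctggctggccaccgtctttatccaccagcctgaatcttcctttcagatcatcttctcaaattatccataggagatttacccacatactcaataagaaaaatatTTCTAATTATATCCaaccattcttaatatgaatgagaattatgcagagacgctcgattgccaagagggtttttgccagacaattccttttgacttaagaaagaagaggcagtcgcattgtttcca
Myh1: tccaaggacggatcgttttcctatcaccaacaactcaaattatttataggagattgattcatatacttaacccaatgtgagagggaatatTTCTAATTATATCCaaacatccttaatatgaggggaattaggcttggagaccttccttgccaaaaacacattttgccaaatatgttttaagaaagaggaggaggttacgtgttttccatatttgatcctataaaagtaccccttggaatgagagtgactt
Myh4: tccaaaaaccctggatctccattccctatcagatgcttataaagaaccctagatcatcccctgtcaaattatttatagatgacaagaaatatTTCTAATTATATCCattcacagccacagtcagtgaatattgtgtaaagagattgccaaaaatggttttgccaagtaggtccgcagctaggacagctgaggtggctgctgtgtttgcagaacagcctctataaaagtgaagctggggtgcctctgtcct
Myh8: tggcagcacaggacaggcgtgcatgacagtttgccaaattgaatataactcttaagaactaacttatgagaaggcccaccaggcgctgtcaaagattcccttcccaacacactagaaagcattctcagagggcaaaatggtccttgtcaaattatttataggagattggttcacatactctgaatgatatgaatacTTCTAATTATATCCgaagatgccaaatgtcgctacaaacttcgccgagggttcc

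The shared run has 14 bases. It begins 125, 160, 158 and 54 bases before the starts of Myh2, Myh1, Myh4 and Myh8. On either strand it was found in 4 (0.0122%) of 32851 promoter windows of that length, those of these 4 genes. The search for shared runs was made after the windows had been seen, and the 4 genes belong to 1 family of near copies. Myh1, Myh4 and Myh8 had 1 MEF2 site each in the window and Myh2 had none (2.92% of windows hold one, both strands searched). The Myh2 window thus carries the shared run but no match to the MEF2 pattern. This says only that these letters are not in this window. Myh3, the other gene of this cluster, also had 0 MEF2 sites, as did every window of Acta1, Actc1, Ckm, Mb and Myh7. Of these genes all but Myh7 had the common pattern. A link between MEF2 sites and the order of the libraries was not tested.

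Acta1 (ENSMUSG00000031972, chromosome 8, 123891769 to 123894751, minus strand), the thin filament actin of skeletal muscle, had 130, 15.3 and 142 FPKM in the knockouts and 157, 74.2 and 319 in the wild types. Actc1 (ENSMUSG00000068614, chromosome 2, 114047282 to 114053548, minus strand), the cardiac actin, had 1.04, 0.329 and 5.17 FPKM against 3.37, 4.39 and 21.3. For both actins the groups overlapped. They parted in knockout 2, where Acta1 was close to knockout 5 but Actc1 was well below it. Actc1 was 0.797% of Acta1 in knockout 2, with an exact (Clopper-Pearson) 95% interval from the fragments of 0.529% to 1.15%. In knockout 5 it was 3.64% (3.02% to 4.35%), in wild type 3 2.15% (1.73% to 2.65%), in wild type 4 5.91% (4.88% to 7.10%) and in wild type 5 6.67% (6.10% to 7.27%). Knockout 4, with 9 Actc1 fragments, gave 2.14% (0.972% to 4.11%). The intervals cover counting error only. Wild types 4 and 5 were thus above the other 4 libraries in this ratio, beyond counting error.

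Before the RefSeq starts of both actin genes the windows hold 1 CArG box each, the binding sequence of serum response factor. It was searched on both strands as CCWWWWWWGG, W being A or T, and is shown in capitals. The windows are chr8:123894776-123895025 and chr2:114052876-114053125, both on the minus strand. The Actc1 window lies within the gene bounds given above, since its RefSeq start lies inside them.
Acta1: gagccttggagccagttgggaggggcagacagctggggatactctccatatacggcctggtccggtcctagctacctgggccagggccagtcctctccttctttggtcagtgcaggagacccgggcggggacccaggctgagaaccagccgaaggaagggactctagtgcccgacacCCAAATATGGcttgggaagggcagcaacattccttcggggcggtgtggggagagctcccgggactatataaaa
Actc1: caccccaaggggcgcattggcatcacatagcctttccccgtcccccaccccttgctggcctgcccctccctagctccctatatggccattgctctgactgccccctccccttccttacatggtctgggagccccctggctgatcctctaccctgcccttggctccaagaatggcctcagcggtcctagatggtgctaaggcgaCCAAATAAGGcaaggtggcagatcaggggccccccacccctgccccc

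The boxes begin 73 (Acta1) and 47 (Actc1) bases before the RefSeq start. Of all windows 1.47% hold such a box, and among the other muscle genes only Myh4 had one (1 match). E-boxes (CANNTG) were found in 66.2% of windows, with 2 in Acta1 and 0 in Actc1. The sequence TATAAA, searched on the gene's strand, stood in 7.59% of windows and in those of Acta1, Myh3, Myh1 and Myh4. Overlaps between matches of different motifs numbered 0 in the 13 windows of the 10 genes. A match describes the sequence and shows no bound site.

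Ckm, which encodes the creatine kinase that regenerates ATP in fibres, had 5.03, 0.446 and 6.18 FPKM in the knockouts and 6.18, 4.33 and 21.3 in the wild types. It had the common pattern, with a ratio of wild type 5 to wild type 4 of 4.92, close to that of Acta1 (4.30) and Myh8 (5.44). Mb encodes myoglobin, the oxygen-binding protein of oxidative fibres. Its FPKM was 1.85, 0.752 and 2.61 in the knockouts and 3.04, 3.20 and 3.90 in the wild types. Mb was the only one of the 10 genes without overlap between the groups and had the narrowest range, and its ratio of wild type 5 to wild type 4 was 1.22. Of the Mb exons, 27.6% overlap the predicted gene Gm49540 and 4.29% Apol6, both on the other strand. Exons of Ckm (15.5%, A930016O22Rik), Myh1 (8.11%, Myhas) and Myh2 (3.32%, 9430073C21Rik) also overlap genes on the other strand. So do those of Myh7 (6.07%, Gm31251, 5.62%, Mhrt, and 1.65%, Gm29015). Without a stated strand setting of the counting, fragments of Mb and of these genes may include those of neighbours or lack some of their own.

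The shares of the IIa and slow chains in myosin RNA fell into 2 patterns that did not follow the amount of that RNA. Myh2 made up 19.9%, 22.1% and 19.2% of the summed FPKM of the 6 heavy chains in the knockouts. In wild types 3, 4 and 5 its share was 16.8%, 2.89% and 2.70%. The share of Myh7 was 3.02%, 4.02% and 3.10% in the knockouts and 2.28%, 0.862% and 0.766% in the wild types. Wild types 4 and 5 therefore had small shares of the IIa and slow chains. Yet wild type 4 had less myosin in sum (21.1 FPKM) than knockout 2 (26.96), and wild type 5 had the most (79.7). In FPKM, Myh2 and Myh7 were higher in wild type 5 (2.15 and 0.610) than in knockout 4 (0.753 and 0.137). Knockout 4, with a sum of only 3.41 FPKM, had a Myh2 share close to that of the other knockouts.

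Myh8 took 38.5%, 37.3% and 33.9% of the sum in the knockouts and 34.4%, 46.8% and 67.5% in the wild types. Myh1 took 27.1%, 23.1% and 32.9% against 33.2%, 35.9% and 19.2%. The extra share in wild type 5 was that of the perinatal chain, and in wild type 4 those of the perinatal and the fast IIx and IIb chains (Myh4 6.72%, against 3.16% to 4.15% in the other libraries). As group means (SD, n = 3), Myh2 held 20.4% ± 1.502 of the sum in knockout and 7.46% ± 8.08 in wild type, Myh8 36.6% ± 2.37 and 49.6% ± 16.7, and Myh7 3.38% ± 0.554 and 1.30% ± 0.850. The Myh2 and Myh7 shares did not overlap between the groups, with wild type 3 next to the knockouts. In FPKM both genes overlapped between the groups. Their log2(FPKM + 1) correlated over the libraries (Pearson r = 0.972), so their shares are not separate evidence. Of all genes tested, 9.54% had each knockout library below each wild type library in FPKM. The opposite direction, that of these shares, was not counted over all genes. For the Myh8 share wild type 3 lay among the knockouts and the groups overlapped. These shares were formed over chosen genes and were given no test.

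**Figure D2:**
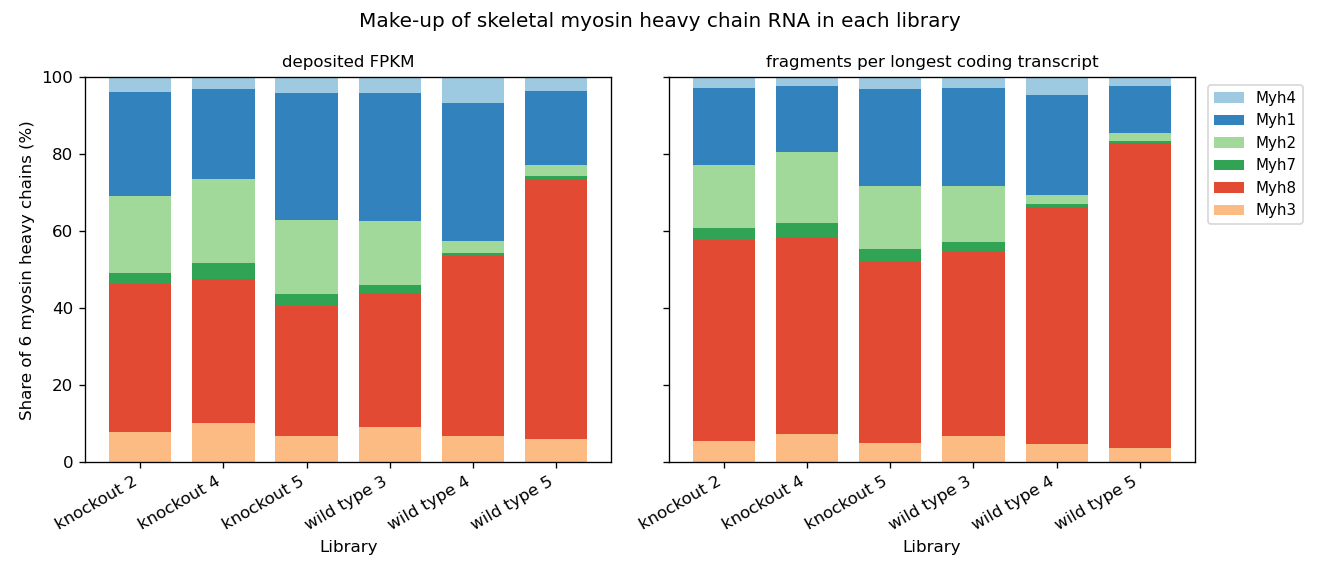
Share of each of the 6 heavy chains in their sum, as percent, in the 6 libraries, from the deposited FPKM (left) and from fragments per base of the longest coding transcript (right). Myh2 is 16.8% to 22.1% of the FPKM sum in knockouts 2, 4 and 5 and wild type 3 and under 3% in wild types 4 and 5, and the split of libraries is the same on both scales.

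The shares depend on the length that FPKM divides by. The deposited values fit the union of all annotated exons, 11772 bp for Myh8, of which the longest coding transcript has 6149 bp, whereas for Myh4 both are 6016 bp. Per base of the longest coding transcript, Myh8 made up 52.3%, 50.8% and 47.4% in the knockouts and 48.2%, 61.7% and 79.1% in the wild types, and Myh2 16.6%, 18.4% and 16.4% against 14.4%, 2.33% and 1.94%. The level of Myh8 against other genes thus depends on the length chosen, and which Myh8 exons the fragments came from was not tested. Comparisons of 1 gene between libraries do not depend on it.

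Some ratios of single genes set wild types 4 and 5 apart beyond counting error and others did not. The ratio of Myh2 to Myh1 FPKM was 0.736 (95% exact interval 0.661 to 0.818), 0.953 (0.701 to 1.30) and 0.582 (0.529 to 0.641) in the knockouts. It was 0.505 (0.461 to 0.553) in wild type 3, 0.0804 (0.0626 to 0.102) in wild type 4 and 0.140 (0.122 to 0.161) in wild type 5. The ratio of Myh8 to Acta1 was 0.0797, 0.0831 and 0.0820 in the knockouts and 0.0826 in wild type 3, with intervals that overlap, against 0.133 (0.125 to 0.142) in wild type 4 and 0.169 (0.164 to 0.174) in wild type 5. The ratio of Myh7 to Myh1 was 0.024 (0.0157 to 0.0352) in wild type 4 and 0.0399 (0.0316 to 0.0497) in wild type 5. It was 0.0687 (0.0566 to 0.0827) in wild type 3 and 0.094 to 0.173 in the knockouts, with intervals from 0.0782. Ckm was 5.84% (5.05% to 6.72%) of Acta1 in wild type 4 and 6.69% (6.25% to 7.14%) in wild type 5. In the other 4 libraries it was 2.91% to 4.35%, with intervals up to 4.92%. In the following pairs wild types 4 and 5 did not both stand apart. The ratio of Myh8 to Myh1 was 3.52 in wild type 5, but 1.30 in wild type 4 lay within the 1.03 to 1.61 of the knockouts. Mb was 4.31% of Acta1 in wild type 4 and 4.90% in knockout 4, against 1.22% to 1.94% in the other 4 libraries. The ratio of Myh4 to Myh1 was 0.187 and 0.192 in wild types 4 and 5, with an interval in wild type 4 (0.156 to 0.223) that overlapped that of knockout 2 (0.112 to 0.172). The slow myosin light chain gene Myl2, set against the fast light chain gene Mylpf, stood at 4.604%, 9.28% and 5.63% in the knockouts and at 2.56%, 1.93% and 0.547% in the wild types. This pair rests on 12 to 61 Myl2 fragments in a library, and the intervals of wild types 3 (1.69% to 3.74%) and 4 (0.989% to 3.42%) overlapped. The interval of knockout 2 (3.34% to 6.21%) overlapped both of these. Those of knockouts 4 (4.99% to 16.2%) and 5 (4.25% to 7.34%) lay above them.

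**Figure D3:**
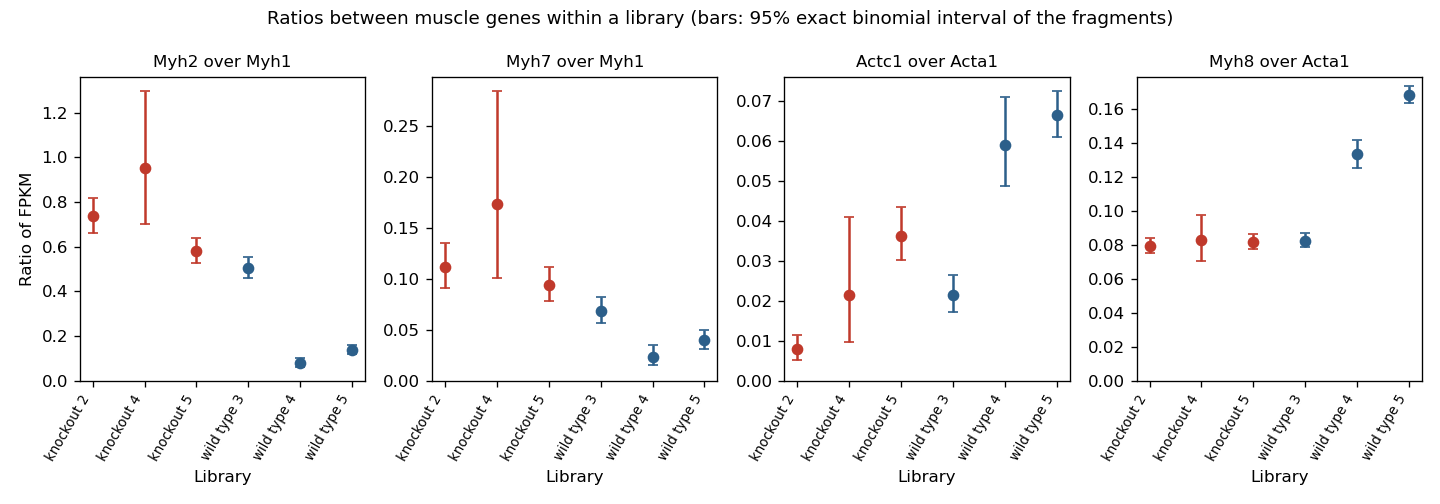
Ratios of FPKM between pairs of muscle genes within each library, with 95% exact binomial intervals of the fragments, for knockout (red) and wild type (blue). Wild types 4 and 5 are lower in Myh2 over Myh1 (0.0804 and 0.140) and higher in Myh8 over Acta1 (0.133 and 0.169) than the other 4 libraries.

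Part of the myosin coding sequence is common to several genes. Of the 50-base windows of the longest coding transcript, 26.9% for Myh2, 26.7% for Myh1, 21.4% for Myh8 and 18.9% for Myh4 also stood in a transcript of another gene, mostly 1 of these 4. For windows of 100 bases the figures were 9.17%, 9.73%, 6.61% and 3.85%. Myh7 shared 22.2% and 11.2%, the latter with Myh6, the neighbouring atrial chain. The sources used here do not state how fragments from such stretches were assigned, so part of each of these values is uncertain. Acta1, Actc1, Ckm and Mb shared 0% of their 100-base windows.

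Between the groups, 0 of the 9 muscle genes tested were called (limma on log2(FPKM + 1), Benjamini-Hochberg adjusted p under 0.05), against 0.334% of all genes tested. Myh7 was below an FPKM of 1 in most libraries and was not tested. Of the 9, 8 had a lower mean in knockout and Myh2 a higher one, with a median log2 fold change of -1.12, where the median of all genes tested was 0.02 and 43.1% of them were below 0. At an unadjusted p under 0.05 there was 1 (Mb, limma), against 6.99% of all genes tested that were lower in knockout at that level. With voom (limma) on fragments recovered from the FPKM, 0 of the 9 were called, against 2.94% of genes, and 5, all lower in knockout, had an unadjusted p under 0.05 (7.07% of all genes). Mb was also the 1 gene of the 9 with each knockout library below each wild type library, which held for 9.54% of all genes tested.

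Group means (SD, n = 3 each) were 95.9 ± 70.0 in knockout and 183 ± 125 FPKM in wild type for Acta1 (log2 fold change -1.21, SE 0.88, adjusted p = 0.513, limma). For Myh8 they were 7.77 ± 5.66 and 25.5 ± 24.5 FPKM (log2 -1.56, SE 0.80, adjusted p = 0.361, limma). Actc1 had the largest fold, 2.18 ± 2.62 against 9.67 ± 10.1 FPKM (log2 -1.66, SE 0.74, adjusted p = 0.303, limma), and Mb had 1.74 ± 0.932 against 3.38 ± 0.456 (log2 -0.74, SE 0.25, adjusted p = 0.199, limma). Myh2 had 4.23 ± 3.08 against 3.02 ± 2.95 FPKM (log2 0.40, SE 0.69, adjusted p = 0.798, limma), and its sign turned without wild type 4 (log2 -0.13). Log2 fold changes of the other 4 (Myh3, Myh1, Myh4 and Ckm) were -0.74, -1.12, -0.71 and -1.26, with adjusted p of 0.300 to 0.420 (limma). None of these differences passed the test, and for all but Mb the libraries of the groups overlapped.

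Much of the lower knockout mean came with knockout 4 and wild type 5. They were picked as the lowest and the highest library for most of the muscle genes. Leaving them out therefore had to raise the fold changes of those genes. With both left out (an alternative chosen after seeing the data), mean FPKM in knockout and wild type was 136 and 115 for Acta1, 11.02 and 11.42 for Myh8, 9.30 and 10.05 for Myh1 and 5.60 and 5.25 for Ckm. The log2 fold change then was 0.33 for Acta1, -0.04 for Myh8, -0.09 for Myh1 and 0.088 for Ckm, with adjusted p of 0.699 to 0.922 (limma). Mb stayed at -0.36 (adjusted p = 0.383, limma), Actc1 at -0.45 and Myh2 at 1.02. Without knockout 4 alone the log2 fold change of Acta1 was -0.19 and that of Myh8 -0.76, and without wild type 5 alone they were -0.69 and -0.84.

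**Figure D4:**
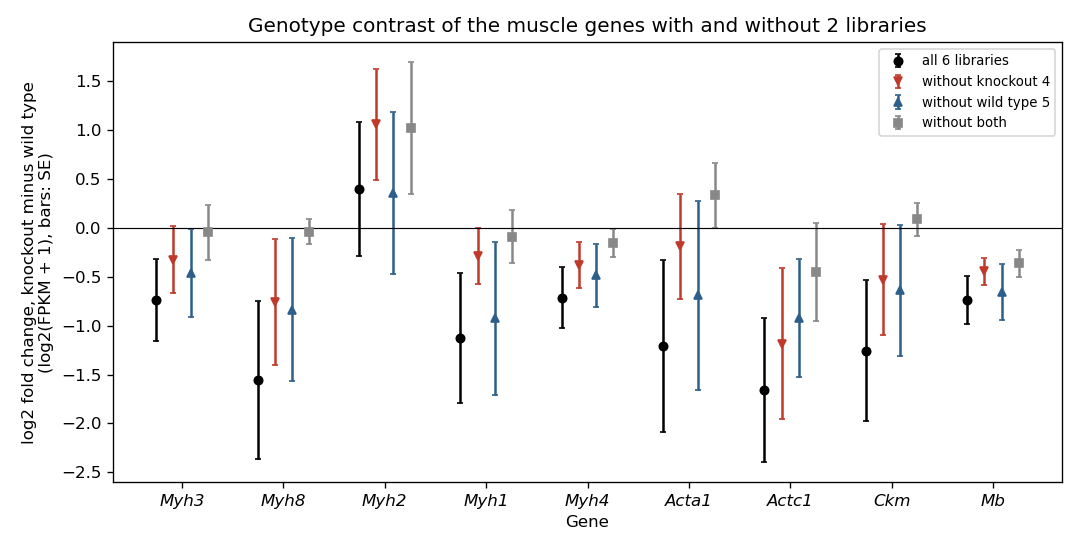
Log2 fold change (knockout minus wild type, on log2(FPKM + 1), bars are SE) of the 9 tested muscle genes with all 6 libraries and with knockout 4, wild type 5 or both left out. Without both, Myh3, Myh8, Myh1 and Ckm lie within 0.1 of 0, and none of the 9 genes was called in any of these 4 fits. Knockout 4 and wild type 5 are the extremes for most genes, so leaving them out had to raise those fold changes.

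Other genes of the contractile apparatus were low and high in the same libraries. All 4 tested light chain genes, all 3 fast thin filament genes and 9 of 10 tested genes of the Z-disc, titin and M-band were lowest in knockout 4, and 4, 3 and 10 of them were highest in wild type 5. By limma 0 of them were called. In the light chain list 1 gene, and in the other lists 0, had an unadjusted p under 0.05, against 17.6% of all genes tested in either direction. Here voom called 0 as well, and the median log2 fold changes of the 3 lists were -0.86, -0.78 and -0.53. Mylpf, the fast regulatory light chain gene, had 31.4, 4.90 and 36.6 FPKM in the knockouts and 33.99, 18.5 and 93.9 in the wild types. Actn2, a Z-disc crosslinker of actin, had 5.95, 0.701 and 7.75 against 8.35, 3.76 and 11.9. Tnnc2, the calcium sensor of fast fibres, had 0 to 3 fragments in a library, and 74.0% of its exons overlap Ube2c on the other strand, so its value says little about fibres. Slow thin filament genes (3 tested, 0 called by limma or voom, 1 with an unadjusted p under 0.05, median log2 -0.03) did not keep to this order, wild type 5 being highest for 2 of 3 and knockout 4 lowest for 1. Tnnt1, the slow troponin T gene, had 1.47, 0.804 and 3.26 against 3.49, 2.48 and 5.28 FPKM. Tnnc1, the slow and cardiac troponin C gene, had 2.08, 1.02 and 2.60 against 1.45, 1.0057 and 1.80 (log2 0.23, adjusted p = 0.626, limma), and Tpm3 stayed at 48.4 to 56.0.

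Of 12 tested genes of excitation-contraction coupling, 12 had a log2 fold change below 0 (median -0.44), 0 were called by limma or voom (1 with an unadjusted p under 0.05) and 11 were highest in wild type 5. Atp2a1, the calcium pump of fast fibres, had 11.98, 1.94 and 13.4 FPKM in the knockouts and 17.02, 10.1 and 44.8 in the wild types, whereas Atp2a2, the pump of slow fibres and of many other cells, stayed at 45.4 to 48.6. In the energy metabolism list 0 of 11 tested genes were called by limma or voom (1 unadjusted, median log2 -0.38), and its most abundant genes, Pfkm (37.8 to 48.1 FPKM) and Fabp3 (25.2 to 31.8), varied little. Both are known outside muscle too. Of the muscle acetylcholine receptor list only Chrnb1 was tested (log2 -0.12, adjusted p = 0.712, limma), at 4.86 to 7.96 FPKM. Chrng, the fetal subunit, had 0.115, 0.0993 and 0.143 FPKM in the knockouts and 0.276, 0.224 and 0.721 in the wild types, while its adult counterpart Chrne had 0.320, 0.140 and 0.819 against 0.502, 0.757 and 0.629. Wild type 5 was the highest library for the fetal subunit and also for Chrna1 (1.98 FPKM), Chrnb1 (7.96) and Chrnd (1.33), which both receptor forms share. Chrne rests on 4 to 22 fragments, too few to order its libraries. Chrng rests on 7 to 48 fragments and Chrnd on 0 to 70, with the most in wild type 5. Their other libraries hold at most 19 and 20 fragments, too few to order these libraries either.

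Regulators confined to the muscle lineage were low in each library. Myog, the factor of fibre differentiation, had 9, 2 and 17 fragments in the knockouts and 22, 20 and 55 in the wild types. Mymk, which lets myoblasts fuse, had 10, 1 and 8 fragments against 1, 7 and 57, and Pax7, the marker of satellite cells, had 0, 1 and 1 against 7, 6 and 49. Wild type 5 was highest for all 3. Of the 12 listed regulators 3 were tested and 0 called by limma (1 unadjusted, and 1 called by voom). Mef2c had 21.1 ± 0.535 in knockout and 16.5 ± 1.15 FPKM in wild type (SD, n = 3, log2 0.34, SE 0.06, adjusted p = 0.0735, limma), and it is known outside muscle too.

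Most myosin genes of other cell types varied little. Of 5 tested, 0 were called by limma (1 unadjusted) and 1 by voom, and Myh9 and Myh10, chains of non-muscle cells, had 45.9 to 53.2 and 23.7 to 27.1 FPKM. Myh11, the smooth muscle chain, differed from these, with 1.67, 1.29 and 3.18 FPKM in the knockouts and 4.66, 8.28 and 6.69 in the wild types (log2 -1.33, SE 0.25, adjusted p = 0.0924, limma). Its groups did not overlap, and wild type 4 was its highest library. Of all genes tested, 9.54% had each knockout library below each wild type library. The cardiac list was near the floor, with a sum of 2.80 to 3.96 FPKM and 0 of 2 tested genes called by limma (0 unadjusted) or voom, and Myh6, next to Myh7 on chromosome 14, had 1.11 to 1.41 FPKM with no dip in knockout 4. The smooth muscle list had a log2 fold change below 0 in 6 of 6 tested genes (6 unadjusted), with 1 called by limma and 4 by voom. Over all genes tested, 17.6% had an unadjusted p under 0.05 (limma, either direction), 0.334% were called by limma and 2.94% by voom. Actg2, a smooth muscle actin gene, fell from 8.96 ± 1.69 to 3.72 ± 0.504 FPKM (SD, n = 3, log2 -1.07, SE 0.14, adjusted p = 0.0425, limma). Its call was lost without knockout 2 or 4 or wild type 4 or 5, and without both knockout 4 and wild type 5. It was also lost with no filter on low values, with eBayes without trend, and with sex or a replicate block as a term. Unlike the skeletal genes, the smooth muscle list summed to 93.2, 72.4 and 86.0 FPKM in the knockouts and 122, 155 and 156 in the wild types, without overlap.

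Markers of tissues near the cochlea also varied between libraries, each list in its own order. Adipocyte genes summed to 19.2, 4.58 and 25.3 FPKM in the knockouts and 66.3, 43.3 and 35.6 in the wild types. All 7 tested were lowest in knockout 4, but 0 were highest in wild type 5, and 0 were called by limma (7 with an unadjusted p under 0.05) and 1 by voom. For these and the following lists, the shares over all genes tested were 17.6% unadjusted (limma, either direction), 0.334% called by limma and 2.94% by voom. Middle ear epithelium genes summed to 13.2, 24.4 and 104 FPKM against 396, 749 and 411, with knockout 2 lowest and 0 of 3 tested genes called by limma (2 unadjusted) and 1 by voom. Skin keratin and cornified envelope genes summed to 5.80, 4.86 and 10.7 against 14.4, 17.9 and 14.3 (0 of 4 called by limma, 2 unadjusted, 1 by voom). The tendon list stayed at 181 to 212 FPKM (0 of 6 called by limma or voom, 1 unadjusted), and Fmod, a tendon and cartilage matrix gene, made up most of it. Hair cell genes summed to 21.3 to 27.1 FPKM, highest in knockout 4 and lowest in wild type 5 (0 of 6 called by limma or voom, 1 unadjusted), and genes of supporting cells and the stria vascularis to 334, 361 and 342 against 291, 289 and 299 (0 of 9 called by limma, 8 unadjusted, 4 by voom). The part of these tissues in the differences of the muscle genes was not tested.

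**Figure D5:**
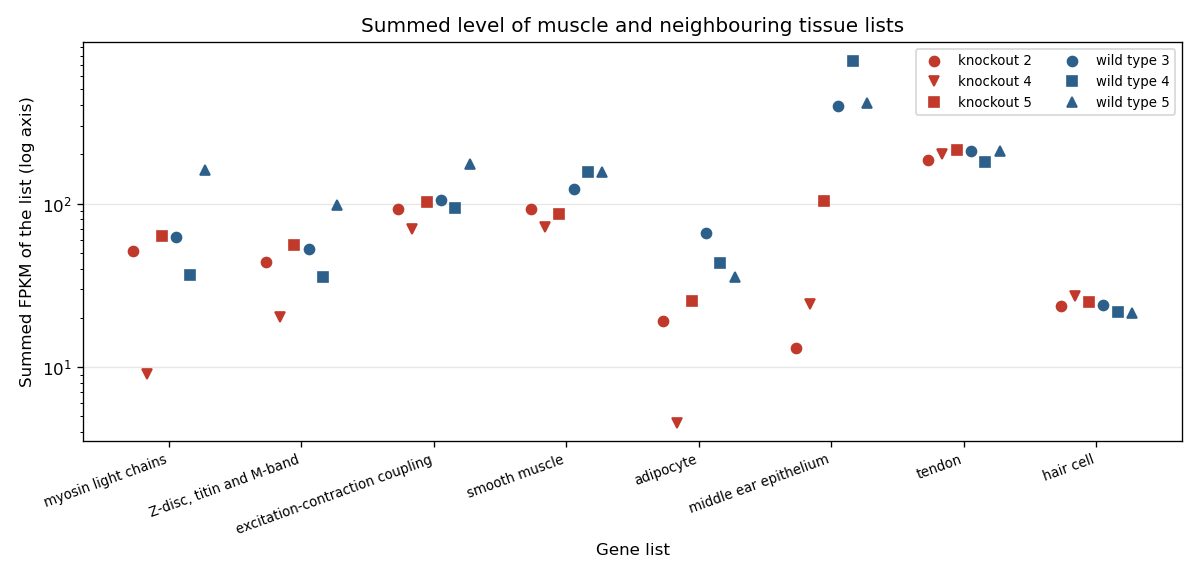
Summed FPKM (log axis) of lists of muscle genes and of markers of other tissues, 1 point per library, knockout red and wild type blue. The 3 lists on the left (light chains, Z-disc and excitation-contraction coupling) have knockout 4 at the bottom and wild type 5 at the top. So has smooth muscle (72.4 and 156), where wild type 4 (155) is next to wild type 5. Adipocyte genes are lowest in knockout 4 (4.58) but highest in wild type 3 (66.3), and middle ear epithelium genes are lowest in knockout 2 (13.2).

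Among 7697 tested genes with a mean of at least 5 FPKM, the 8 most like the mean of the 10 muscle genes over the 6 libraries were Myl1 (Pearson r = 0.996), Desi1 (0.989), Mylpf (0.988), Atp2a1 (0.987), Actn2 (0.987), Srp68 (0.987), Tnnt3 (0.985) and Sumo2 (0.982). These r rank genes and describe 6 points that knockout 4 dominates. Myl1, Mylpf, Atp2a1, Actn2 and Tnnt3 are sarcomere or calcium pump genes of striated muscle. Desi1, Srp68 and Sumo2 are expressed in most cells and spanned only 9.49 to 11.1, 39.2 to 49.3 and 54.4 to 63.1 FPKM, so a high r here also comes from small changes in the same order.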

How the data were processed

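RNA-seq of P7 cochlea was deposited by the authors as 1 table of FPKM per gene and library, per the file headers, on GRCm38 per the submitters' processing notes. The sources used here do not give the aligner, counter or strand setting. Multiplying the deposited FPKM by union exon length (GENCODE M21, 30378 genes) gave whole fragments for 98.1% to 98.2% of values (within 0.01 fragment plus 1e-06 of the value). These recovered fragments gave depth and intervals. Samples were grouped by the labels. The 14072 genes that reached an FPKM of 1 in 3 or more libraries entered limma 3.58.1 (R 4.3.3, eBayes with trend) as log2(FPKM + 1), with Benjamini-Hochberg adjustment at 0.05, a scale that understates folds of low genes. The fit was run on simulated data with the same fixed spread between libraries for all genes. That run does not test the fit at the wide spread of the muscle genes. Alternatives were another pseudocount, other filters, median-ratio scaling, eBayes without trend, library weights, sex or a replicate block as a term, voom on recovered fragments and leaving out libraries. Added after seeing the data were leaving out knockout 4 with wild type 5, and the longest coding transcript as length.

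The 10 genes and all lists were chosen with earlier results of these data known. Named were the 10 genes, up to 3 called genes of each list or else some of its 2 most abundant, the 8 genes most alike (mean FPKM of at least 5, predicted genes left out) and Neu4. Myl2, Myh11, Tnnc1, Tnnc2, Chrnd, Chrng, Chrne, Myog, Mymk and Pax7, and Tnni2, Casq1 and Acta2 in the closing section, were named after their values were seen. Nppb and Flg were listed but not matched. Intervals are exact binomial at 95%. Promoter windows are from RefSeq (GRCm38.p6). Protein sequences were not used here.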

Additional observations from a re-analysis of the deposited data

How the results depend on the processing

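Over all genes, 47 were called by limma, and the number was 19 without a filter or without trend, 103 at a minimum FPKM of 5, 104 with library weights, 24 with sex as a term, 413 by voom, 11 without both knockout 4 and wild type 5, and 12 to 105 leaving out 1 library (12 for wild types 3 and 4, 15 for knockout 2, 16 for knockout 4, 21 for wild type 5, 105 for knockout 5). Median-ratio scaling called 11 higher and 37 lower, against 18 and 29. Of the muscle genes 0 were called in each alternative but the replicate block, which called 3 (Myh8, log2 -2.19, Actc1, -1.93, and Ckm, -1.76, adjusted p = 0.0255, 0.0283 and 0.0314, limma) and 22 genes in all, among them Mylpf, Tnnt3, Tnni2, Atp2a1 and Casq1 of the muscle lists (log2 -1.53, -1.32, -1.10, -1.79 and -1.23). Its 1 smooth muscle call was Acta2, not Actg2. The labels give replicate numbers no meaning and the groups share only 4 and 5, whose deviations correlated at 0.141 and 0.150. Knockout 2 and wild type 3, with no shared number, had 0.110 and the other 6 pairs -0.125 to -0.010, and the block pairs libraries by number alone. Of 140 alternative fold changes of the 9 genes, 3 turned sign: Myh2 without wild type 4 (-0.13), and Acta1 (0.33) and Ckm (0.088) without knockout 4 and wild type 5. Leaving out 1 library, the log2 fold change of Myh2 ran from -0.13 to 1.06, that of Acta1 from -1.75 to -0.19 and that of Ckm from -1.68 to -0.53. Per longest coding transcript, mean shares of myosin in knockout were 5.93% for Myh3 (5.09% in wild type), 50.2% for Myh8, 17.1% for Myh2, 20.8% for Myh1 and 2.65% for Myh4, where FPKM gave 8.25% (7.40%), 36.6%, 20.4%, 27.7% and 3.69%. The cause of these changes, other than the length used, was not tested. In knockout 4 Actc1, Myh4, Mb, Myh7 and Ckm rest on 9, 11, 19, 20 and 22 fragments, and Myh7 in wild type 4 on 27.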
